A study of Arabidopsis thaliana with 12 samples.

Results

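FPT2 (At2g22960) is a serine carboxypeptidase-like acyltransferase that the study ties to the production of saiginols, phenylacylated flavonol glycosides of Arabidopsis flowers. Flowers of 10 accessions were hybridized to 12 ATH1 arrays, and the comparison described here is restricted to the accessions that do not make saiginols and asks how those with the 2 kinds of defective FPT2 allele differ. By array title, 2 accessions carry the allele that the study calls type II (Laer and Sap) and 3 carry type III (Col-0, Stw and Ws). These are 5 of the 10 accessions and 6 of the 12 arrays, 2 in type II and 4 in type III, since Col-0 was hybridized 2 times and its arrays were averaged on the log2 scale. The remaining 5 accessions (C24, Cvi, Da, RLD and Rsch), with type I alleles, make saiginols and are given by their values only.

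All plants were untreated accessions, and RNA came from flowers. In the study's account, the type II sequence of Laer (Ler-0) and Sap resembles that of the producer C24 apart from a deletion of a few bases in a late exon, whereas type III alleles resemble Col-0 and lack most of the exons. Stw is described with a further short deletion. The study's text does not list Ws by name under type III. It was placed there as a non-producer that the text does not name among the type II accessions. For a pair of arrays the ecotype entry differs from the title: RLD is entered for the one titled Sap, and Sap-0 for the one titled Stw. Titles were used here, so the accession and allele type of both rest on them. On the array titled Sap the FPT2 signal was 28.9, against 307.9 on the array titled RLD and at least 197.5 on all producer arrays. The identity of the arrays was not tested. An accession is 1 value here, and the accessions differ across their whole genomes, so allele type and every other difference between these accessions cannot be told apart.

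Flavonols are made from phenylalanine by way of chalcones and are stored in the vacuole after sugars, and in some accessions acyl groups, have been attached. Serine carboxypeptidase-like acyltransferases move acyl groups from glucose esters onto such acceptors. In flowers these compounds absorb UV-B radiation, which can damage DNA. An allele that lacks exons can leave a transcript that a given set of probes binds weakly or not at all, and a short deletion that shifts the reading frame can mark a transcript for decay.

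The signals are linear intensities that had been scaled before deposition to a common level, a mean of 100.0 without the highest and lowest 2% of values. Array medians of the 6 arrays lay between 48.4 and 51.1, and no bacterial control probe set (27 on each of the 12 arrays) exceeded 16.6, so signals below that level are not distinguished from background here. Across probe sets, the log2 signals of the Laer and Sap arrays correlated with each other at r = 0.966. The 8 pairs of a type II with a type III array lay between 0.959 and 0.970, and the 5 pairs of different type III accessions between 0.960 and 0.976, so arrays of the same type were not visibly closer to each other than arrays of different types. The 2 Col-0 arrays reached 0.978. Genes are not independent replicates, and these correlations are a description.

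FPT2 was brighter in Laer than in any other non-producer, but the 2 types overlapped. Its signal was 89.8 in Laer and 28.9 in Sap, against 27.8 and 34.8 on the Col-0 arrays, 17.6 in Stw and 26.5 in Ws. Laer therefore stood apart at 3.11 times the signal of Sap, while Sap lay among the type III arrays and Stw lay near the bacterial controls. Type II averaged 59.3 ± 43.1 (SD, n = 2 accessions) and type III 25.1 ± 6.95 (SD, n = 3), and the log2 difference of type II minus type III was 0.76 (standard error 0.38, 95% interval -0.19 to 1.71). Neither limma (adjusted p = 0.732 over 22746 probe sets) nor an exact permutation over the 10 choices of 2 accessions among 5 (two-sided p = 0.2, where 0.1 is the smallest possible) separated the types. The difference rests on Laer, since it was 0.14 without Laer and 1.38 without Sap. Producers had 197.5 to 307.9, and the lowest producer had 2.2 times the signal of Laer and 6.31 times the Col-0 mean of 31.3. Where the probes of this set lie relative to the deleted exons was not analysed here, so a low signal in type III does not separate a missing stretch of transcript from fewer transcripts.

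**Figure D1:**
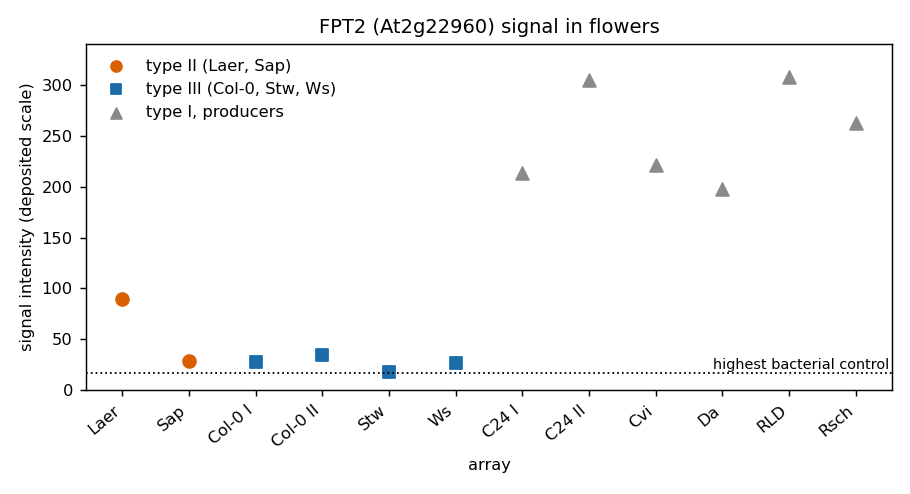
Signal intensity of the FPT2 probe set (linear deposited scale, vertical axis) on each of the 12 arrays, with type II in orange circles, type III in blue squares and the producers in grey triangles. Laer reaches 89.8, the other 5 non-producer arrays lie between 17.6 and 34.8, and all producer arrays lie at 197.5 or above.

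Of the 7 listed genes of the FPT2 region that encode serine carboxypeptidase-like proteins, FPT2 alone has a probe set named for it. Its tandem neighbours were therefore not analysed here. FPT1 (At2g22920) also has no such probe set, although the study reports its transcript from these arrays as higher in C24 than in Col-0. Its signal was not assigned here, and the counts of loci around FPT2 leave it out. The types are defined at FPT2, and the surrounding genes were therefore examined. Here and below, a gene counts as measured only where a probe set is named for it alone. A gene that is not measured in this sense can still have a signal on the arrays. Within 250 kb of the start of FPT2 (chromosome 2, 9770894 to 9772977 in TAIR10.1), 51 loci were measured including FPT2 itself. In 7 of them both type II accessions lay above all 3 type III accessions, and in 6 both lay below. Over all probe sets the same separation without overlap was found in 13.6% (3084, higher in type II) and 9.54% (2170, lower), so the shares of 13.7% and 11.8% around FPT2 are near the background. The median log2 difference was 0.04 near FPT2 and 0.02 over all probe sets. In the wider interval from AT2G22230 to AT2G31610, 56 of 447 loci lay higher and 38 lower without overlap, or 12.5% and 8.5%. None of these loci passed the adjusted threshold of 0.05 in limma, while 20 higher (4.47%) and 16 lower (3.58%) of the 447 had an unadjusted p under 0.05, against 4.02% and 2.91% over all probe sets.

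AT2G23120, whose start is 70.9 kb from that of FPT2, had the widest gap between the types in the neighbourhood. It gave 964.2 in Laer and 1087.5 in Sap, against 1495.5 and 1215.0 on the Col-0 arrays, 1376.8 in Stw and 1633.2 in Ws (log2 difference -0.49, standard error 0.14, limma adjusted p = 0.719). All 5 producers lay on the side of type II, with 445.1 to 1119.0, and among the 13 loci near FPT2 whose types did not overlap it was the only one of which this was true. AT2G22660 gave 352.9 and 339.3 in Laer and Sap and 240.5 to 319.8 on the type III arrays, with 4 producers on the type III side. Wider gaps than that of AT2G22660, in AT2G22440, AT2G23230 and AT2G23500 (whose probe set can bind more than 1 gene), were at signals of at most 15.4 in the non-producers, below the highest bacterial control.

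**Figure D2:**
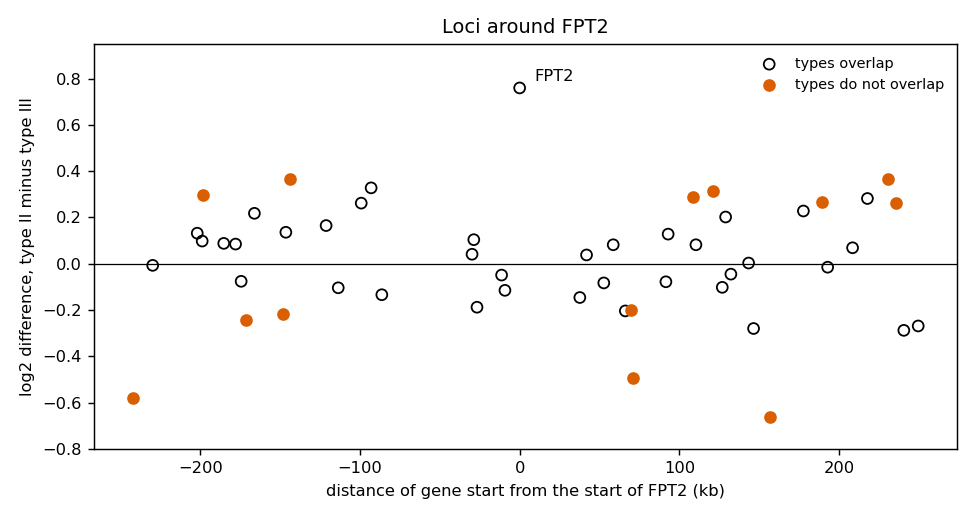
Log2 difference of type II minus type III (vertical axis) for the 51 measured loci within 250 kb of FPT2, against the distance of the gene start from that of FPT2 in kb. Filled points are the 13 loci in which the types do not overlap, 7 above and 6 below 0, on both sides of FPT2, whose own point is open at 0.76.

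Across the genome, 1 of 22746 probe sets (0.0044%) passed the adjusted threshold. It is the probe set 262908_at, which has no gene name in the annotation used. Its signal was 23.1 in Laer and 23.5 in Sap, against 497.2 and 451.5 on the Col-0 arrays, 394.7 in Stw and 407.6 in Ws. The type III accessions were thus 18.3 times brighter on average, at 425.6 ± 42.8 (SD, n = 3) against 23.3 ± 0.283 (SD, n = 2), a log2 difference of -3.49 (standard error 0.13, limma adjusted p = 0.00931). Producers fell on both sides, with C24 (490.3 and 450.0) and Cvi (481.7) near type III and Da (51.4), RLD (40.8) and Rsch (23.6) near type II. The signal of this probe set therefore did not follow saiginol production or the FPT2 allele across the 10 accessions. Its separation without overlap held in all 17 alternatives, but it passed the threshold in none of the 5 fits that left out 1 accession, where its log2 difference lay between -3.53 and -3.41. With the ecotype entries in place of the titles it was -1.85 (limma adjusted p = 0.715).

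At an unadjusted p under 0.05, 915 probe sets (4.02%) were higher and 663 (2.91%) lower in type II. An unadjusted threshold passes some probe sets by chance, and with 2 accessions against 3 separation without overlap is frequent in any split. Such counts alone therefore do not show a difference by allele type. Which direction is more frequent depends on the scaling. After median centring of the arrays the counts without overlap were 2568 higher and 2837 lower, so that the share of higher ones was 47.5% in place of 58.7%. Of the 5254 probe sets without overlap, all 5 producers lay on the side of type III in 1225 (23.3%) and on the side of type II in 124 (2.36%), where a side is past the midpoint between the nearest accessions of the types. In the other 3905 the producers were divided. Selecting probe sets in which the smaller group lies beyond the larger places other accessions more often on the side of the larger, here type III. These shares therefore do not show that producers resemble type III, and no test was made of them.

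Of the 24 loci with the widest gaps, 12 in each direction, 6 kept their separation without overlap when the ecotype entries replaced the titles and 18 lost it, among them AT3G48640, AT2G32160, AT5G15980, CHIL and IAA18. These 18 separations therefore rest on the titles of the arrays Sap and Stw. Several of the loci were bright in some accessions and near background in others. Among those higher in type II, AT3G48640 gave 79.4 in Laer and 76.2 in Sap and 1.7 to 6.5 on the type III arrays (log2 difference 2.25, standard error 0.14, limma adjusted p = 0.0706), with 3 producers on the side of type II. AT5G48350 gave 30.7 and 57.0 against 1.2 to 2.1, and no producer array exceeded 2.3. Both are at background in every type III accession, where the pseudocount sets the size of the log2 difference, and AT5G48350 is above it in Laer and Sap alone among the 10 accessions.

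A pair of adjacent loci stood out in type II. AT2G32160 gave 101.8 in Laer and 136.7 in Sap, against 37.6 and 36.8 in Col-0, 34.1 in Stw and 9.1 in Ws, and its neighbour AT2G32150 gave 673.5 and 786.7 against 115.7 and 216.7, 345.9 and 156.2. Both had all 5 producers on the type III side, with at most 24.6 and 256.7. The log2 differences were 1.72 and 1.75 (standard error 0.36 each, limma adjusted p = 0.719 each). In both genes type II was brighter than every other accession by more than the spread within type II, although neither passed the threshold.

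AT5G48490 gave 843.6 in Laer and 519.3 in Sap. It gave 82.3 and 53.6 in Col-0, 109.3 in Stw and 236.3 in Ws, and among the producers Cvi came closest at 399.2. AT5G43680 was tight within each type, with 93.6 and 94.1 against 43.0 to 49.2, and the producers had 40.3 to 45.4 (log2 difference 0.85, standard error 0.10, limma adjusted p = 0.515). CHR18, a chromatin remodelling factor, followed the same pattern with 61.9 and 62.4 in Laer and Sap, 26.2 to 32.1 on the type III arrays and 22.9 to 45.1 in producers. In mean signal, type II was 2.09 and 2.14 times type III in these genes, with little spread among the accessions of each type. The plastid genes psaC and rpl20 were also in this group and are described with the plastid genome. AT5G28470 (116.4 and 93.9 against 37.6 to 54.4), AT4G37295 and AT1G34100 completed it, and AT1G34100, listed as a pseudogene, stayed below the highest bacterial control in all 6 non-producer arrays.

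Among the loci lower in type II, AT3G44430 had the widest gap, with 0.9 in Laer and 3.9 in Sap against 93.2 and 105.1 in Col-0, 97.7 in Stw and 136.4 in Ws (log2 difference -2.78, standard error 0.18, limma adjusted p = 0.0706). Both type II signals are below the highest bacterial control, so the size of this difference is set by the pseudocount and ran from -5.18 to -1.39 over the 17 alternatives. Producers were again divided, with 170.4 in Da and 2.3 in Rsch. AT3G19515 gave 28.3 and 41.9 against 169.4 to 217.1, and AT4G23680 gave 182.7 and 234.6 against 570.9 to 986.9 (limma adjusted p = 0.12 and 0.139). AT5G15980 was the 1 locus of these 12 in which every producer resembled type II, with 24.5 in Laer, 16.4 in Sap and 17.7 to 26.4 in producers against 86.2 to 98.6 on the type III arrays. Its log2 difference was -1.59 (standard error 0.14, limma adjusted p = 0.2), and Col-0, Stw and Ws were thus 4.55 times brighter than Laer and Sap on average.

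IAA18, an Aux/IAA repressor of auxin responses, gave 74.3 in Laer and 63.3 in Sap and 141.9 to 156.6 on the type III arrays (log2 difference -0.94, standard error 0.12, limma adjusted p = 0.515). C24, Cvi and Da lay between the types with 90.7 to 109.4, and RLD and Rsch were near type III with 151.9 and 140.7. AT4G00895 showed a like split at 63.0 and 70.2 against 134.8 to 142.3. AT3G47070 (285.1 and 354.7 against 656.2 to 778.6) and AT2G15340 (10.2 and 15.9 against at least 45.0) had 1 producer each on the side of type II. The group was completed by AT2G40250, AT1G69730 and AT5G49500, whose highest type II signal was 15.2, and by CHIL.

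**Figure D3:**
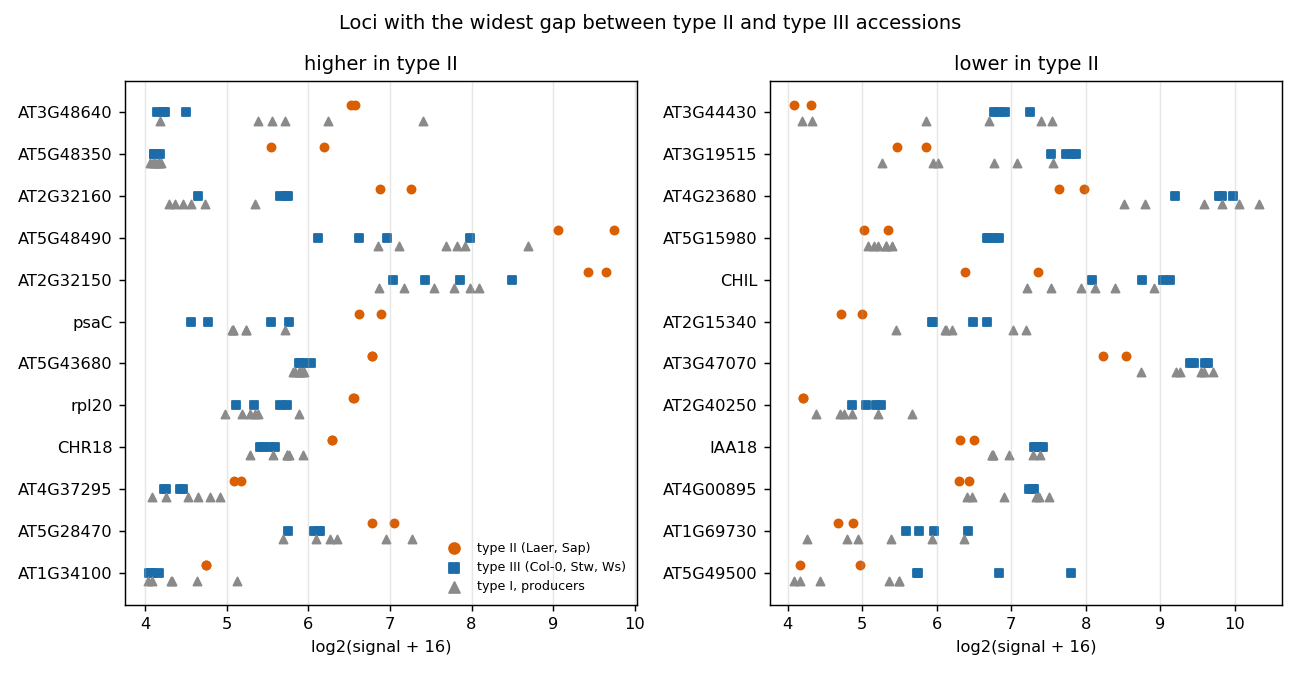
Log2(signal + 16) on each array (horizontal axis) for the 12 loci with the widest gap between the types in each direction, with type II as orange circles, type III as blue squares and producers as grey triangles. In every row the orange and blue points do not overlap, while the producers follow type III in some rows (AT5G48350, AT5G43680), type II in 1 (AT5G15980) and neither in most.

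CHIL, a chalcone isomerase-like protein that raises the flux into flavonoids, was lower in type II. It gave 147.4 in Laer and 67.2 in Sap, against 254.6 and 545.1 on the Col-0 arrays, 414.1 in Stw and 509.6 in Ws. Every type III array was brighter than both type II arrays, and the type III mean was 4.11 times that of type II (log2 difference -1.93, standard error 0.31, 95% interval -2.71 to -1.15, limma adjusted p = 0.691). The 2 Col-0 arrays differed about as much as Laer and Sap did, and the producers took values of both types, with 132.4 to 466.5. CHIL is the 1 gene with a probe set named for it alone among the 11 listed for flavonol synthesis and its control. The others can have signals under probe sets without such a name, which were not assigned to genes here.

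Of the 7 listed genes that attach sugars or methyl groups to flavonols, 5 were measured. All 5 had negative log2 differences (median -0.50, against 0.02 over all probe sets), 3 were lower in type II without overlap (against 9.54% over all probe sets), and none passed the adjusted threshold in limma. UGT78D3, the flavonol arabinosyltransferase, gave 3.9 in Laer and 5.8 in Sap, against 31.5 and 39.9 in Col-0, 8.0 in Stw and 25.9 in Ws (log2 difference -0.84, standard error 0.33, limma adjusted p = 0.719). Stw, at 8.0, was close to type II and below the bacterial control level. AT5G54010 showed the same order, with 14.0 and 4.7 in type II, 14.5 in Stw and 30.7 to 41.4 in Col-0 and Ws. UGT78D1, the flavonol rhamnosyltransferase, gave 127.9 and 121.5 in type II against 128.9 in Stw and 161.9 to 216.4 in Col-0 and Ws, so that Stw exceeded Laer by less than the Col-0 arrays differed from each other. UGT78D2, the flavonol glucosyltransferase, gave 135.4 and 132.5 against 122.7 to 158.6 and its types overlapped. The separations in this list therefore lie mainly between Laer and Sap on one side and Col-0 and Ws on the other.

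Late genes of the anthocyanin and tannin branch mostly overlapped between the types. Of 13 listed 5 were measured, each with a positive log2 difference (median 0.52), as had 54.0% of all probe sets, and none passed the adjusted threshold. In 1 of the 5 type II was higher without overlap, against 13.6% over all probe sets. This was UF3GT, which adds xylose to anthocyanins, with 52.9 and 59.7 in Laer and Sap, 21.6 and 44.8 in Col-0, 46.4 in Stw and 26.4 in Ws (log2 difference 0.52, standard error 0.19, limma adjusted p = 0.719). All producer arrays lay below both type II arrays, with at most 36.6. DFR, the dihydroflavonol reductase at the entry of the branch, gave 82.5 and 42.9 in type II, 14.4 and 21.7 in Col-0, 26.0 in Ws and 52.1 in Stw, so Stw exceeded Sap and the types overlapped. In AT4G14090, BAN and AT5MAT, Laer was the highest non-producer with 50.0, 19.0 and 35.6, while Sap (12.6, 1.9 and 11.0) lay within the range of the type III arrays.

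**Figure D4:**
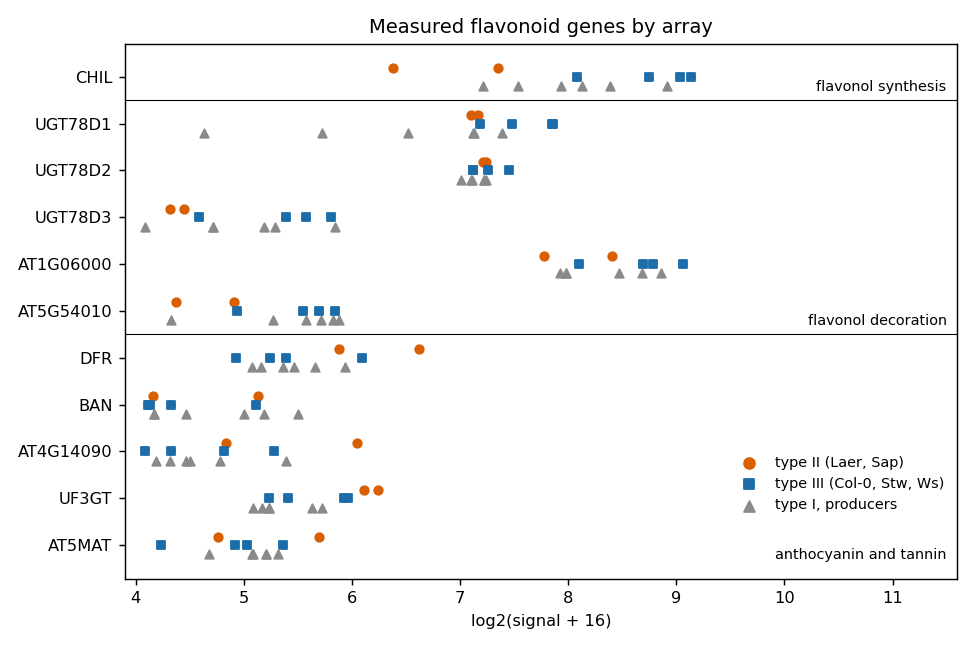
Log2(signal + 16) of the 11 measured genes of flavonol synthesis, flavonol decoration and the anthocyanin and tannin branch on each array, with type II as orange circles, type III as blue squares and producers as grey triangles. CHIL separates the types most widely, and in UGT78D1, UGT78D3 and AT5G54010 the lowest blue point, Stw, lies beside the orange points.

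In other branches of phenylpropanoid metabolism the few measured genes showed little by allele type. Of 11 genes of sinapate esters and monolignols 6 were measured, with a median log2 difference of 0.12. In 1 of them type II was lower without overlap, against 9.54% over all probe sets. This was UGT72E1, which was at background with at most 4.5 in the non-producers. ALDH2C4, a dehydrogenase that makes sinapate and ferulate, gave 251.1 and 207.8 in type II and 141.4 to 225.8 on the type III arrays, and UGT84A1, a glucosyltransferase of hydroxycinnamates, gave 19.4 and 28.7 against 9.2 to 27.4. None of the 8 general phenylpropanoid genes was measured under a single gene name. Of 10 UV-B response genes HYH alone was measured, a bZIP factor of light signalling, with 11.1 and 19.7 against 1.1 to 19.8.

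The large contrasts among the measured genes of other pathways did not run along the allele types in the non-producers. Of the 30 glucosinolate genes 5 were measured and 0 separated the types. Over all probe sets 13.6% were higher and 9.54% lower without overlap, so 0 of 5 is not unusual. AOP3, a dioxygenase of aliphatic glucosinolate side chains, was high in Laer (190.6) and Stw (91.2) and at most 6.9 on the other 4 arrays, and UGT74B1, a glucosyltransferase of the core structure, gave 149.3 and 68.9 against 93.1 to 151.5. ECS1 gave 2094.1 and 1985.5 in Col-0 and 2145.0 in Ws but 17.6 in Stw, 118.8 in Laer and 30.1 in Sap, so its type III accessions were divided. Of the 5 measured defence genes 1 was lower in type II without overlap, against 9.54% over all probe sets. This was THI2.1, a thionin, by a small margin (1382.1 and 1229.1 against 1396.9 to 2126.7, log2 difference -0.26). The cold gene LTI30, a dehydrin, and the small heat shock protein ATHSP22.0 overlapped between the types, as did the clock gene GI, with 168.6 and 289.4 against 115.9 to 261.1.

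Among loci that RefSeq lists with a gene symbol, a choice made after values were seen, CHR18 had the widest gap above type III. CSLA03, a glucomannan synthase, gave a mean of 68.0 in type II with 72.0 in Sap, against 18.7 to 39.3 on the type III arrays, and EXGT-A3, a xyloglucan endotransglucosylase, gave 160.8 and 197.3 against 109.6 to 123.3. BGLU45, a glucosidase of monolignol glucosides, gave 42.4 and 38.3 against 12.7 to 24.8. The type II mean of these genes, in this order, was 2.25, 1.56 and 2.25 times that of type III. SWEET11, a sucrose exporter, gave 448.0 and 457.0 against 226.1 to 328.5, with producers at 323.1 to 423.8. F2KP, the enzyme that sets fructose 2,6-bisphosphate levels, gave 293.0 and 294.9 against 195.1 to 252.3. The cysteine proteinase CP1 gave 127.9 and 160.3 against 64.3 to 98.6, and the tetraspanin TET9 gave 37.6 and 47.6 against 20.2 to 25.1. The expansin EXPA7 and the tetraspanin TET6 separated at signals of at most 17.1. None of these genes passed the adjusted threshold (limma adjusted p 0.691 to 0.719, CHR18 0.666).

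The corresponding loci below type III were led by CHIL and IAA18. ATB2 gave 131.2 in Laer and 92.8 in Sap, against 425.9 and 426.8 in Col-0, 402.6 in Ws and 215.3 in Stw (log2 difference -1.47, standard error 0.33, limma adjusted p = 0.719). HTB1, a histone H2B, gave 341.9 and 246.7 against 447.7 to 676.9, and BGLU28, a beta-glucosidase, gave 24.5 and 34.6 against 60.9 to 89.3. The types did not overlap in these genes, but C24 had 678.1 and 328.2 for HTB1 on its 2 arrays, a difference as wide as that between the types. GRXC1, a glutaredoxin, gave 34.8 and 34.4 against 56.1 to 83.2. PWD, the symbol listed for AT4G24450, gave 28.5 and 35.9 against 47.9 to 62.0, and GH9B18, of the plant endoglucanase family, gave 51.5 and 52.3 against 76.7 to 105.4. EXPA18, an expansin, and the glycosyltransferase UGT71C1 were below the bacterial control level in both type II arrays.

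In the plastid genome type II lay above type III in most genes, a group singled out after values were seen. Of its 69 probe sets, 36 (52.2%) were higher in type II without overlap and 0 were lower, against 13.6% and 9.54% over all probe sets, and 60 had a positive log2 difference. The median log2 difference was 0.42, while on chromosomes 1 to 5 it was 0.01 or 0.02 and 12.3% to 14.3% of loci were higher without overlap. At an unadjusted p under 0.05, 25 (36.2%) were higher and 0 lower, against 4.02% and 2.91% over all probe sets, and 0 passed the adjusted threshold. Genes of a plastid genome are inherited together and many share transcripts, so they are not independent observations.

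Both type II arrays were high in plastid signal as a whole. Summed over the 69 probe sets it was 41999.1 in Laer and 35075.7 in Sap, against 27902.7 and 27364.0 on the Col-0 arrays, 31189.4 in Stw and 31574.4 in Ws. Producers had 27747.9 to 31036.8, within the range of type III. Laer had the highest signal of the 10 accessions in 43 plastid probe sets and Sap in 11, and in 25 (36.2%) they were the highest pair, which was the case in 5.12% of all probe sets. In 17 of the 36 without overlap (47.2%) all 5 producers lay on the type III side and in 0 on the type II side, against 26.9% and 1.69% of all probe sets higher in type II without overlap. In scaling alternatives the count without overlap was 36 after quantile normalization and 33 after median centring, with 0 lower in both. With the ecotype labels used in place of the titles, so that the array titled Stw joined Laer and that titled Sap was left out, it was 30 higher and 0 lower, with 17 genes in common with the 36. It was 39 higher and 6 lower without Laer, 59 higher and 1 lower without Sap and 37 higher and 3 lower without Col-0.

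Each photosynthetic complex had plastid genes in which type II lay above type III without overlap. Of the 5 photosystem I genes 2 were higher without overlap, against 13.6% over all probe sets, with a median log2 difference of 0.33. With so few genes in a complex, such counts are a description. The largest gap was that of psaC, an iron-sulphur subunit of photosystem I, with 102.1 in Laer and 82.7 in Sap, 11.2 and 7.5 in Col-0, 38.3 in Stw and 30.4 in Ws (log2 difference 1.43, standard error 0.34, limma adjusted p = 0.719). Type II was thus 3.55 times type III in mean signal, and no producer exceeded 36.5. The abundant core subunit psaB gave 1848.3 and 2022.9 against 1096.0 to 1500.9, while psaA hardly differed (127.5 and 113.3 against 108.8 to 121.8).

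Rubisco, the ATP synthase and the NADH dehydrogenase-like (NDH) complex lay in the same direction. The large subunit of Rubisco, rbcL, gave 185.0 and 215.7 in type II and 95.2 to 120.6 on the type III arrays (log2 difference 0.81, standard error 0.14, limma adjusted p = 0.691), with Cvi at 179.2 the only producer close to type II. Of the 6 ATP synthase genes 4 were higher without overlap (median 0.52), against 13.6% over all probe sets. Among them was atpA with 232.6 and 163.7 against 91.4 to 120.6. All 10 NDH genes had positive differences (median 0.65) and 6 were without overlap. In ndhA and ndhI, which are neighbours in 1 operon, the contrast lay with Stw and Ws: ndhI gave 2425.7 and 1906.9 in type II, 1749.7 and 1597.2 in Col-0, but 517.5 in Stw and 435.1 in Ws. Of the 6 genes of the cytochrome b6f complex 2 separated the types, for example petA with 542.1 and 530.6 against 324.3 to 458.2.

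Genes of the plastid's own expression machinery followed as well. Of 15 ribosomal protein genes 9 were higher without overlap (median 0.40), against 13.6% over all probe sets. The gene rpl20 gave 77.2 in Laer and 78.6 in Sap against 18.6 to 37.5 on the type III arrays (log2 difference 1.01, standard error 0.18, limma adjusted p = 0.691). All 4 genes of the plastid-encoded RNA polymerase had positive differences and 2 were without overlap, among them rpoA with 613.6 and 707.9 against 289.4 to 548.8. The acetyl-CoA carboxylase subunit accD gave 116.3 and 131.3 against 64.2 to 82.9.

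Of the 9 plastid genes with negative differences, 5 encode photosystem II subunits, 3 ribosomal proteins (rps2, rps18 and rps19) and 1 a cytochrome c assembly protein (ccsA), and the types overlapped in each. Of the 15 photosystem II genes 7 were higher without overlap, against 13.6% over all probe sets. Among them was psbB, a core antenna protein, with 201.8 and 142.4 against 87.5 to 109.6. The gene psbA, which encodes the D1 protein, gave 157.1 in Laer, 112.5 in Sap and 71.1 and 57.5 in Col-0, but 391.9 in Stw and 540.8 in Ws, and RLD and Rsch had 779.4 and 677.3. Sap alone was low among the non-producers in psbE, psbF, psbL and psbJ, which form 1 operon, with 329.3 for psbF against 985.0 in Laer and 542.6 to 804.3 on the type III arrays. The protease subunit clpP was low in Col-0 (336.7 and 389.1), intermediate in type II (914.4 and 957.1) and highest in Stw and Ws (1500.3 and 1434.5).

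**Figure D5:**
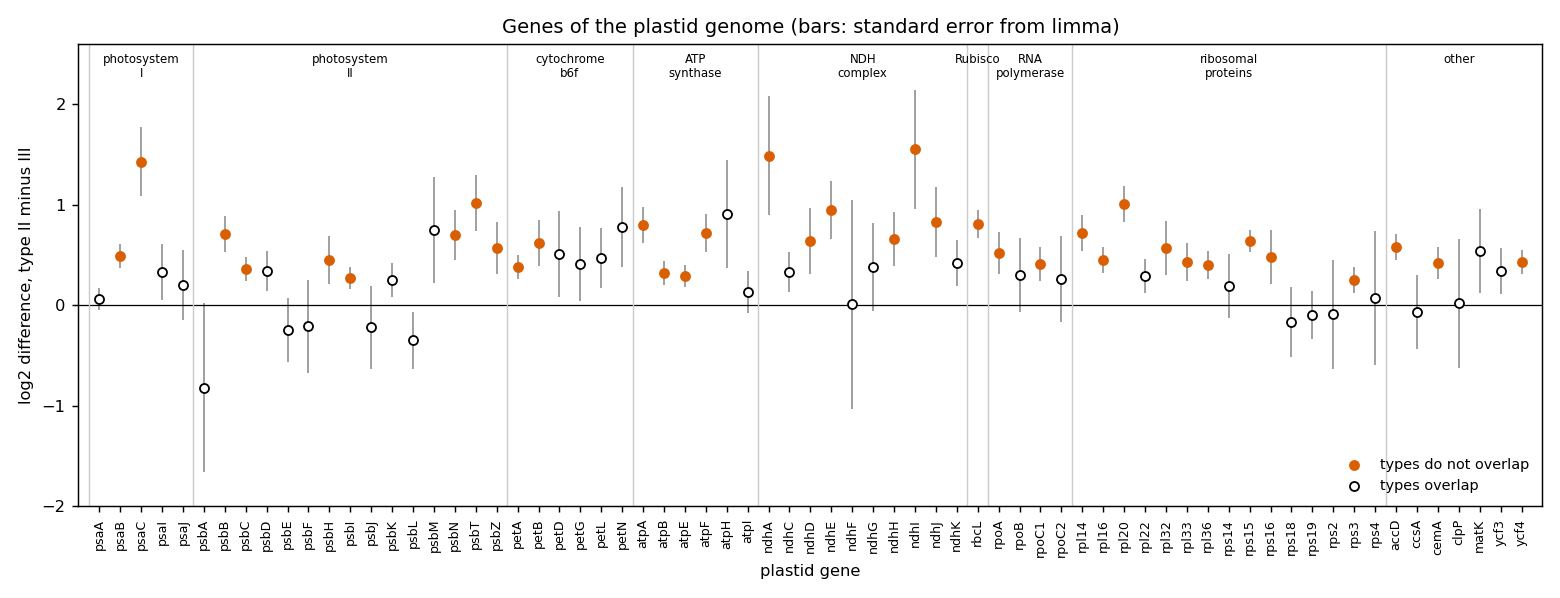
Log2 difference of type II minus type III (vertical axis) with its standard error from limma for each of the 69 plastid genes, grouped by the complex they encode. Filled points, the 36 genes in which the types do not overlap, all lie above 0, and 9 open points, among them psbA, lie below.

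Measures of tissue and RNA on the same arrays moved in part with the types. The summed signal of the 2 measured nuclear genes of photosynthesis (RCA and LHCB4.1, of 20 listed) was 5761.6 in Laer and 5255.9 in Sap against 4023.9 to 5205.8 on the type III arrays. Each gene alone overlapped between the types, and neither was at 0. The middle probe set of the actin control gave 624.1 and 621.3 in type II against 758.4 to 911.7, and a 5′ actin probe set gave 466.0 and 447.3 against 656.9 to 838.6. A 3′ actin probe set divided the type II arrays, with 312.5 in Sap and 2151.9 in Laer against 1991.3 to 2363.4 on the type III arrays, and C24, Cvi and Da had 308.5 to 400.2. The ratio of 3′ to 5′ signal of GAPDH was 1.72 in Laer and 1.27 in Sap, and 0.932 and 1.08 in Col-0, 1.58 in Stw and 1.17 in Ws, so the types overlapped. The 25S ribosomal RNA probe set gave 94.7 and 82.0 in type II against 51.3 to 93.4. Their part in the plastid and other differences was not tested. In bulk tissue, more green cells and more plastid RNA per cell cannot be told apart.

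Among markers of floral organs, the sums for pollen and for tapetum and anther overlapped between the types. The carpel and ovule sum was higher in type II without overlap, though the types overlapped in all of its genes but ALC. None of the measured markers passed the adjusted threshold in limma. The 4 measured pollen genes of 9 summed to 133.0 in Laer and 65.2 in Sap against 90.4 to 170.8 on the type III arrays. In 1 of the 4 type II was lower without overlap, against 9.54% over all probe sets. This was ACT12, an actin of pollen (16.5 and 15.5 against 23.0 to 47.3, log2 difference -0.53). The 3 measured genes of tapetum and anther of 15 summed to 2637.6 and 1623.7 against 2127.6 to 2465.8. AMS, a transcription factor of the tapetum, ran from 40.3 in Laer to 107.9 in Sap and from 53.5 in Ws to 170.2 in Col-0, so its spread within each type was as wide as that between them. The 4 of 10 measured carpel and ovule genes summed to 403.0 and 397.8 against 337.8 to 364.3. In 1 of the 4 type II was higher without overlap, against 13.6% over all probe sets. This was ALC, a factor of fruit opening, at 213.8 and 237.1 against 181.2 to 196.2. SPT (83.5 and 97.6 against 74.0 to 85.4), NGA3 and INO overlapped between the types. The 1 measured floral identity gene, UFO, separated the types at signals of at most 8.9, and 0 of 7 seed storage genes were measured. No measured marker was at 0 on any array, and the part of these markers in the other results was not tested.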

How the data were processed

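RNA of flowers was hybridized to ATH1 arrays designed on Col-0. The deposited values are linear signal intensities, 1 per probe set and array, which the authors had scaled to a common trimmed mean. Their summarization software is not given in the sources used here. Detection calls were left aside. Of 22810 probe sets, 64 controls were left out and 22746 tested, of which 13436 are named for 1 RefSeq locus (TAIR10.1) and cover 13286 loci. The other 9310 have no single named locus, and genes found only under them count as not measured. Intensities were taken as log2(signal + 16), which understates changes of dim genes, the 2 Col-0 arrays were averaged, and type II and III accessions were compared, 2 against 3, with limma 3.58.1 (R 4.3.3), two-sided, p-values adjusted by Benjamini-Hochberg, threshold 0.05. The p-values measure the spread between accessions, most with a single array, and the number of arrays limits the precision. The procedure was also run on simulated noise with planted differences and a common spread for all probe sets. Spread varies between probe sets in these data, so that run does not measure the error rate here. Ratios are of mean signals.

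The genes named are FPT2, all probe sets past the threshold, the 12 loci with the widest gap (the log2 distance between the nearest accessions of the types) in each direction, 5 within 250 kb of FPT2 and the 2 with the smallest p in each of 17 gene lists (227 loci, 49 measured). The comparison, the lists and the rule were chosen with earlier results of these data known. The plastid genes, the 10 and 10 loci with a gene symbol (of 1466 on chromosomes 1 to 5) and UGT78D1, UGT78D2, UGT72E1 and loci counted singly were named after their values were seen. Alternatives covered pseudocounts of 1 and 64, quantile normalization, median centring, omission of the lowest 25% of signals, all 10 accessions in 1 fit, a variance trend with a robust prior, each Col-0 array alone, the ecotype labels, omission of Sap and Stw, of each accession in turn, and of the _s_at and _x_at probe sets. Python 3.11.15 and matplotlib 3.10.9 were used for counts and plots. No sequences are shown.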

Additional observations from a re-analysis of the deposited data

Results flagged for a closer look

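In 8 of 212 groups of 5 accessions (producers or non-producers, by gene), 1 accession lay far from the other 4. Chance would give about 1 in 20 for independent groups not chosen by their values. Most genes here were chosen by their values and many plastid genes share transcripts, so the count is not read against that rate. Among the non-producers, FPT2 had 89.8 in Laer and 17.6 to 31.3 in the other accessions (gap over range 0.81), and in RCA, the Rubisco activase, Col-0 was lowest at 2095.4 with the other 4 between 2808.2 and 3085.2 (0.72). Among the producers, ECS1 had 1971.8 in Cvi and 9.6 to 74.1 in the others (0.967), and psaC had 36.5 in Cvi and 17.5 to 21.7 in the others (0.779). The plastid ribosomal genes rpl36 and rpl14 had 1389.6 and 275.2 in Da, against 466.4 to 662.1 and 88.8 to 132.4 in the other producers (0.788 and 0.766). AT2G22440 had 3.6 in RLD and 13.1 to 16.4 in the others (0.742), and EXPA18 had 12.4 in C24 and 20.7 to 23.6 in the others (0.741).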

How the results depend on the processing

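The number of probe sets past the adjusted threshold was 5 with the lowest 25% of signals left out (262908_at, AT3G48640, AT3G44430, AT3G19515 and AT4G23680), 3 with the 10 accessions in 1 fit (AT5G15980, AT5G48350 and AT5G43680, without 262908_at), 0 without the arrays titled Sap and Stw, and 0 in each fit that left out 1 accession. Without Sap and Stw, 8985 probe sets were higher and 7193 lower without overlap, with 38 loci near FPT2 and, in the plastid, 60 higher and 1 lower. With the ecotype labels the counts were 5277 and 3529, with 21 loci near FPT2, and the lowest signals left out gave 7 loci near FPT2. These settings compare other numbers of accessions or fewer probe sets, and with fewer accessions separation without overlap is more frequent by construction. Leaving out 1 accession gave 4253 to 7197 higher and 3414 to 5550 lower probe sets, 16 to 28 loci near FPT2, and 37 to 59 plastid probe sets higher and 0 to 6 lower.

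The log2 difference of FPT2 stayed positive in all 17 alternatives (0.14 to 1.38) and never passed (adjusted p 0.468 to 0.901). Its types did not overlap in 4 of them. The probe set 262908_at ranged from -4.13 to -1.85 (adjusted p 0.00164 to 0.715) and also missed the threshold without Sap and Stw. With the ecotype labels the 1 probe set past it was AT2G25510 (-5.51, adjusted p 0.0441). With the ecotype labels, 53 of the 89 separations without overlap among the genes followed here were lost (18 of the 24 widest, 19 of 36 in the plastid), and differences turned for AT5G49500 (0.09), UGT84A1 (-0.20), UGT74B1 (0.24), LTI30 (0.15), ATHSP22.0 (-0.32), AT4G39110 (0.29), ATA27 (0.15), SPT (-0.07) and rpl32 (-0.07). Without Sap and Stw they turned for HYH (-0.0028), UGT74B1 (0.23), AT4G39110 (0.29) and ATA27 (0.22). Fits without 1 accession ranged from -0.16 to 0.29 for HYH (negative without Col-0 or Sap), -0.94 to 2.53 for AOP3 (without Laer), -0.82 to 0.15 for UGT74B1, -0.53 to 0.19 for AT4G39110 and -0.37 to 0.19 for ATA27 (positive without Sap), and -0.02 to 0.47 for ATHSP22.0 (negative without Stw). None of these genes passed the threshold in the comparison itself. The cause was not tested. The result on the plastid genome and the genes named after their values were seen were put through the same alternatives, a choice made after seeing the data. No paired analysis was possible because only Col-0 among these accessions has numbered arrays. Signals below 16.6, the highest bacterial control, limit what can be said of dim genes.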
